A study of Mus musculus with 24 samples.

Results

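The expression of 10 genes of the NRF2 antioxidant pathway was measured by RNA-seq in 24 libraries of mouse embryonic fibroblasts (MEFs). The genes were given by name as members of the pathway, by a rule that uses no measured value, and they are 10 of the 55471 genes in the count tables. They are Nfe2l2, which encodes NRF2, its inhibitor Keap1, and the target genes Nqo1, Hmox1, Gclc, Gclm, Gsr, Txnrd1, Srxn1 and G6pdx. All cells were 3T3 MEFs, which are immortalized fibroblasts, and were wild type (WT), Lkb1-/-, or Lkb1-/-/Crtc2-/-. LKB1, encoded by Stk11, is a kinase that activates AMPK and the salt-inducible kinases, and CRTC2 is a coactivator of CREB that these kinases hold in the cytoplasm. The Lkb1-/-/Crtc2-/- cells were 2 clones, A1 and A2, each grown from a single CRISPR-edited Lkb1-/- cell, so that both clones lack LKB1 as well. Each genotype was left untreated or was stimulated with the cytokine IL-1β for 6 hours, with 3 libraries in each of the 8 groups.

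NRF2 is a transcription factor whose amount is set mainly by protein turnover. KEAP1 holds it and presents it to a CUL3 ubiquitin ligase for degradation, and electrophiles or oxidants that modify KEAP1 let NRF2 build up, pair with a small MAF protein and bind antioxidant response elements. Its targets make glutathione, keep glutathione and thioredoxin reduced, supply NADPH, and clear quinones and heme, and transcript levels of these targets are widely read as pathway output.

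Between 38842901 and 48594394 read pairs per library were counted on genes. The targeted genes were examined first. Stk11 stood at 86.0 ± 1.68 CPM (read pairs relative to the library's total, scaled by the TMM method; SD, n = 3) in untreated WT MEFs and at 17.3 ± 1.24 in untreated Lkb1-/- MEFs. Crtc2 stood at 81.1 ± 1.80 CPM in untreated Lkb1-/- MEFs, 42.9 ± 2.11 in clone A1 and 49.8 ± 0.864 in clone A2, so that Crtc2 transcripts remained in both clones. Of 9 fibroblast markers, Vim and Col1a1 were high in every group, Thy1 and Lum were near 0, and Dcn and Pdgfra stood at 0.411 and 4.58 CPM in untreated WT MEFs against 218 and 342 in untreated Lkb1-/- MEFs. Col1a2 went the other way, with 780.1 CPM in WT, 63.0 in Lkb1-/-, 246 in clone A1 and 128 in clone A2, and untreated Lkb1-/- MEFs had 3 of the 7 fibroblast markers tested called higher than WT and 3 called lower. The summed level of 6 leukocyte markers lay between 2.49 and 4.04 CPM in untreated WT libraries and between 6.69 and 8.54 in untreated libraries of the clones, with Ptprc and Adgre1 at or near 0. Epithelial and endothelial marker sums were at most 2.93 and 3.85 CPM in any library. The part of these differences between lines in the results was not tested, and in bulk RNA fewer cells with a transcript and less transcript per cell cannot be told apart.

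Promoter sequence was examined for the element that NRF2 binds. The RefSeq windows for mouse build GRCm38.p6 run from 250 bases before to 50 bases after a transcription start, and 7 of the 10 genes had at least 1 window (9 windows in all, 3 of them of Txnrd1). Hmox1, Gclc and Gsr had none. The core of the antioxidant response element was searched on both strands as TGACNNNGC, which 12.4% of 32817 windows of all genes held, and as TGAGNNNGC, which 17.7% held. At least 1 of these forms was in 27.8% of all windows and in 5 windows of 5 of the genes, namely Nfe2l2, Gclm, Txnrd1, Srxn1 and G6pdx. The AP-1 site TGANTCA, which can overlap the element, was in 7.81% of all windows and in that of Srxn1. The full cAMP response element TGACGTCA, to which CREB binds, was in 1.79% of all windows and in 0 of the 9, and its shorter form TGACG was in 20.8% of all windows and in those of Gclm, Srxn1 and 1 of Txnrd1. A match of letters is a description and not a bound site. Only these 300 bases were searched, so a window without a match does not show that the gene lacks the element. Of the windows, 4 are shown because Srxn1 and Gclm fell in both clones, Txnrd1 was higher in both, and Nqo1 fell in clone A1 and has no match in its window. Capitals mark the cores and AP-1 sites, and sequences run 5′ to 3′ along the gene.
Srxn1, chr2:152105274-152105573, plus strand: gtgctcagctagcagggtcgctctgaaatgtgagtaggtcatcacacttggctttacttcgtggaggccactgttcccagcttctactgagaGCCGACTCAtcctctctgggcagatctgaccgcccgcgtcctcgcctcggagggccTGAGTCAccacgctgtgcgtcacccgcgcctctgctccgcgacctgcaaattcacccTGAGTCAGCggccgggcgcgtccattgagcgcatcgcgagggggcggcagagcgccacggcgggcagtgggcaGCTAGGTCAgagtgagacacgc
Gclm, chr3:122245307-122245606, plus strand: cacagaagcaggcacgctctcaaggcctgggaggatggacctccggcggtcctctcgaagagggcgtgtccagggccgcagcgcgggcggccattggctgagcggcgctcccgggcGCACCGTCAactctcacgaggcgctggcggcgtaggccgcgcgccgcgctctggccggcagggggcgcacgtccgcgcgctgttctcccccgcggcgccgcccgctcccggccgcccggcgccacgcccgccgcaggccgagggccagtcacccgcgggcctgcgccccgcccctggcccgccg
Txnrd1 second window, chr10:82858956-82859255, plus strand: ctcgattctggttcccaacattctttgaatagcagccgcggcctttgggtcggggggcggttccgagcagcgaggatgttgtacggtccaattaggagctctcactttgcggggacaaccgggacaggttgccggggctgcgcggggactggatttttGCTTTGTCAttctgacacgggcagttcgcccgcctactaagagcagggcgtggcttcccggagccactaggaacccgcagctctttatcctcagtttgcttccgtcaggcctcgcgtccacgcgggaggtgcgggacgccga
Nqo1, chr8:107403156-107403455, minus strand: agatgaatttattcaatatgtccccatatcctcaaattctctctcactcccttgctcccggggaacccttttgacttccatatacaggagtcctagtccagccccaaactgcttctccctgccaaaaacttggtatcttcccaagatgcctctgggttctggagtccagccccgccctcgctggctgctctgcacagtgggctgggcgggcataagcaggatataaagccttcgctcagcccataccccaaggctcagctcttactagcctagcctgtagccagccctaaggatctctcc

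In the Srxn1 window, cores began 158 and 45 bases before the start and 29 bases after it, and the AP-1 site at 45 bases before the start lay inside the core there. In the Gclm window the core began 134 bases before the start and overlapped the shorter form of the cAMP response element. The Txnrd1 core began 92 bases before the start of that window.

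All 10 genes were well above the detection limit, with at least 1510 read pairs in each library (the lowest was Nqo1) and at most 16224 (Txnrd1). Compared per kilobase of exon in untreated WT MEFs, the highest levels were those of G6pdx (79.0 CPM per kb), Gsr (78.5) and Hmox1 (66.3). Nfe2l2 (50.9), Txnrd1 (46.7) and Nqo1 (39.8) followed, and Srxn1 (25.9), Gclc (22.2), Gclm (21.3) and Keap1 (12.8) were lowest. The spread between groups was moderate. The highest group mean was 2.22 times the lowest for Hmox1 and 2.03 times for Gsr, and between 1.22 times (G6pdx) and 1.67 times (Txnrd1) for the other 8 genes. Counts of Keap1 and G6pdx with strand were above those without it, at 132% to 141% and 114% to 116%, and the counts with strand were used. The cause of this was not tested.

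**Figure D1:**
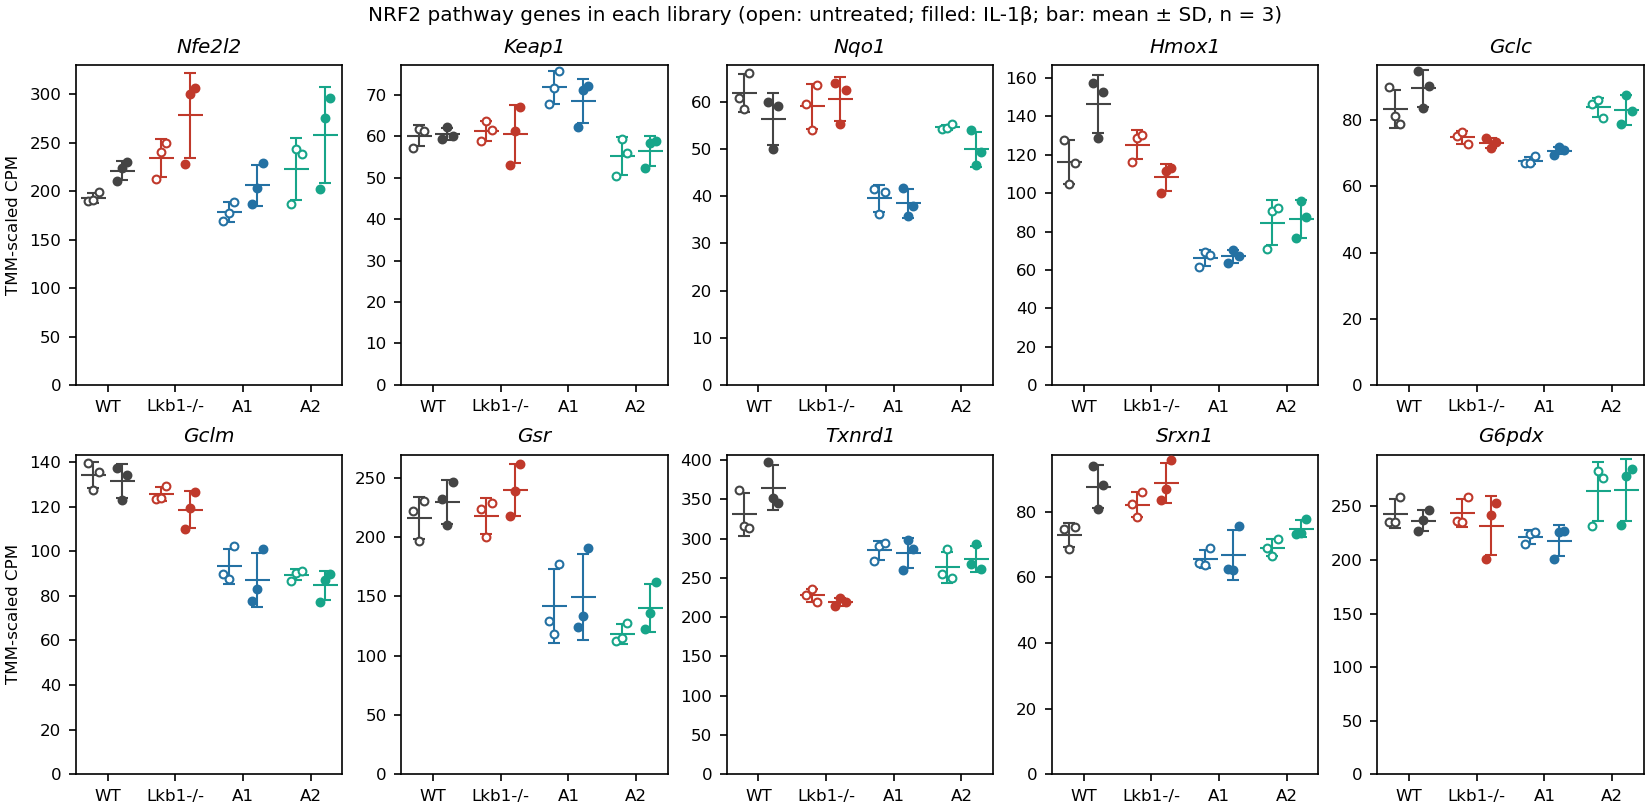
TMM-scaled CPM of the 10 genes in each of the 24 libraries, by genotype (open points untreated, filled points IL-1β, bars mean ± SD, n = 3). Hmox1, Gsr and Gclm sit lower in clones A1 and A2 than in WT and Lkb1-/- MEFs under both treatments, and Txnrd1 sits highest in WT MEFs.

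Whether loss of LKB1 went with another level of the pathway was asked by comparing untreated Lkb1-/- with WT MEFs. The labels name no further line of either genotype, so loss of LKB1 cannot be told apart from other differences between the lines. Most of the 10 genes did not pass the test. Genes were called where the edgeR quasi-likelihood test gave a Benjamini-Hochberg false discovery rate (FDR) under 0.05 over all 17522 genes tested. Of the 10 genes, 0 were called higher, where 30.1% of all genes were, and 2 were called lower, where 25.8% of all genes were. The median log2 fold change of the 10 was 0.01, beside 0.04 over all genes tested.

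Txnrd1, which encodes cytosolic thioredoxin reductase, fell most. Its levels were 362, 316 and 314 CPM in the WT libraries and 228, 236 and 219 CPM in the Lkb1-/- libraries. The groups did not overlap, and the log2 fold change was -0.54 (SE 0.0747, FDR 2.69e-06), which is 1.45-fold lower. Gclc, the catalytic subunit of the enzyme that makes the glutathione precursor, stood at 90.0, 81.4 and 78.9 CPM in WT and at 75.2, 76.5 and 72.7 CPM in Lkb1-/- libraries. Its log2 fold change of -0.16 (SE 0.0564, FDR 0.022) was small and lost its call without WT replicate 1, where it was -0.10 with an FDR of 0.166. It was also lost with upper quartile scaling (-0.08, FDR 0.325), without a filter (FDR 0.157), with a minimum of 10 counts in every library (FDR 0.0653) and in a fit of these groups alone (FDR 0.0703).

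Nfe2l2 and Srxn1 were above WT in every Lkb1-/- library, and whether they passed the test depended on the settings. Nfe2l2 stood at 189, 191 and 199 CPM in WT and at 213, 240.2 and 249.9 CPM in Lkb1-/- libraries, a log2 fold change of 0.28 (95% interval 0.01 to 0.55, FDR 0.0745). Srxn1, which encodes sulfiredoxin, the enzyme that repairs overoxidized peroxiredoxins, differed by 0.17 (interval 0.02 to 0.33, FDR 0.0558). Neither was called in the TMM-scaled fit of all libraries. Both were called higher with upper quartile scaling (Nfe2l2 0.36, FDR 0.00376; Srxn1 0.25, FDR 0.00291), with a minimum of 10 counts in every library (FDR 0.0176 and 0.0103) and in a fit of these groups alone (FDR 0.00302 and 0.0243), and Nfe2l2 also without a filter (FDR 0.004). The other 6 genes had log2 fold changes between -0.10 (Gclm) and 0.11 (Hmox1).

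Under IL-1β, 1 gene was called higher in Lkb1-/- than in WT MEFs (30.2% of all genes) and 3 lower (27.1%). Txnrd1 stood at 398, 351 and 346 CPM in WT and 214, 224 and 219 CPM in Lkb1-/- libraries, a log2 fold change of -0.74 (SE 0.0749, FDR 3.0e-08). Hmox1, which encodes the heme-degrading enzyme heme oxygenase, stood at 157, 129 and 153 CPM in WT and at 100.1, 111 and 113 CPM in Lkb1-/- libraries. Every Lkb1-/- library was below every WT library for both genes, and the log2 fold change of Hmox1 was -0.44 (SE 0.104, FDR 0.00111). Gclc differed by -0.29 (SE 0.0565, FDR 0.000149). Nfe2l2 was called higher by 0.33 (SE 0.129, FDR 0.0332), but the call was lost without any 1 of 5 of the 6 libraries (WT replicate 1, 2 or 3, or Lkb1-/- replicate 2 or 3, FDR 0.0505 to 0.15) and with unstranded counts (0.28, FDR 0.0898), and the groups overlapped. In the fit blocked by replicate number, Gclm was also called lower (-0.15, FDR 0.0367).

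Whether the additional loss of CRTC2 went with another level was asked by comparing each clone with Lkb1-/- MEFs. Each clone grew from a single edited cell, and no single-cell clone of Lkb1-/- MEFs with CRTC2 intact was among the groups. Loss of CRTC2 therefore cannot be told apart from differences that came with cloning. More of the 10 genes differed here, and most of them were lower in the clones. In untreated cells, clone A1 had 6 of the 10 genes called lower (16.4% of all genes) and 2 called higher (18.9%), and clone A2 had 4 called lower (15.1%) and 2 called higher (17.1%). The median log2 fold change was -0.36 in clone A1 and -0.13 in clone A2, beside 0.02 over all genes in each comparison. Both comparisons use the same 3 Lkb1-/- libraries. Hmox1, Gsr, Gclm and Srxn1 were called lower, and Txnrd1 higher, in both clones.

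**Figure D2:**
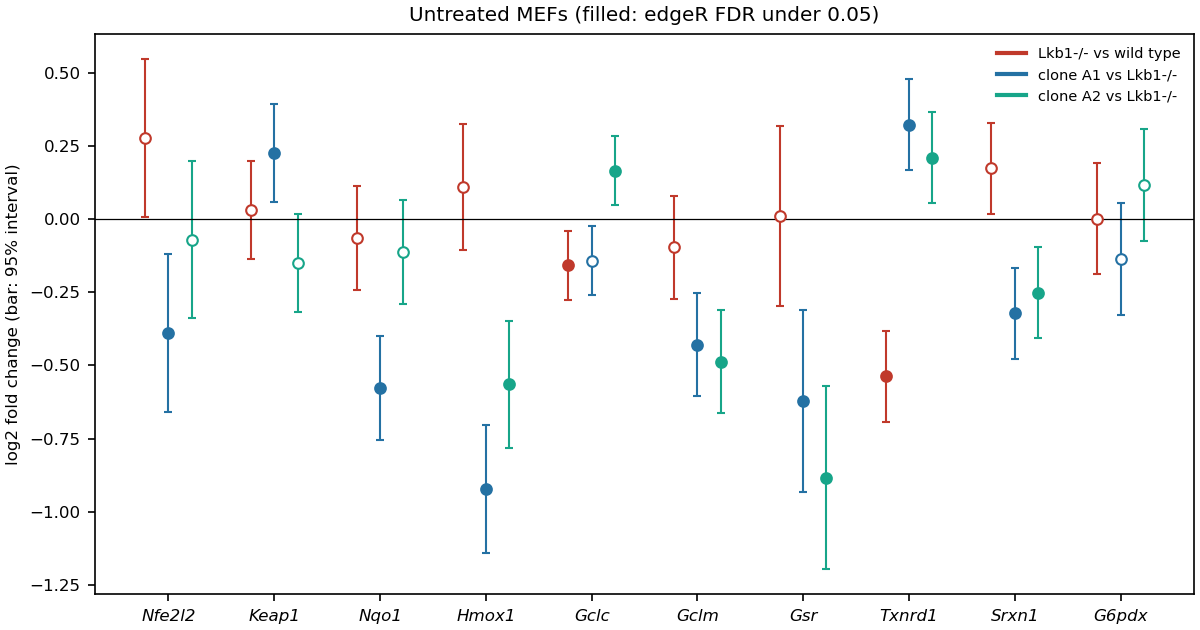
Log2 fold changes of the 10 genes between genotypes in untreated cells (points; bars are 95% intervals of the edgeR fit, filled points have an FDR under 0.05). In both clones against Lkb1-/- MEFs the intervals of Hmox1, Gsr, Gclm and Srxn1 lie below 0 and that of Txnrd1 lies above 0.

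Among the regulators, Nfe2l2 differed from Lkb1-/- MEFs in clone A1. Its levels were 169, 178 and 189 CPM in clone A1 and 186, 244 and 239 CPM in clone A2. All clone A1 libraries lay below all Lkb1-/- libraries, whereas those of clone A2 overlapped them. The log2 fold change was -0.39 in clone A1 (SE 0.129, FDR 0.0224), a call lost without Lkb1-/- replicate 2 or 3 or clone A1 replicate 1 or 2 (FDR 0.0607 to 0.0829), and -0.07 in clone A2 (interval -0.34 to 0.20, FDR 0.724). Keap1 stood at 58.8, 63.6 and 61.6 CPM in Lkb1-/-, 67.8, 71.7 and 75.8 CPM in clone A1 and 50.3, 59.4 and 56.0 CPM in clone A2. It was higher in every clone A1 library, with a log2 fold change of 0.23 (SE 0.0802, FDR 0.0322), a call lost without clone A1 replicate 2 (FDR 0.0735) or 3 (FDR 0.132) or without a filter (FDR 0.0809). In clone A2 it was -0.15 (FDR 0.165), but it was called lower with upper quartile scaling (FDR 0.0397) and a minimum of 10 counts in every library (FDR 0.0366), and in the fit blocked by replicate number it was called lower (FDR 0.0112).

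Among enzymes that clear heme and quinones, Hmox1 was lower in both clones and Nqo1 in clone A1. Hmox1 stood at 116, 129 and 130.4 CPM in Lkb1-/-, 61.4, 69.2 and 67.7 CPM in clone A1 and 70.9, 90.9 and 92.2 CPM in clone A2. Neither clone overlapped the Lkb1-/- libraries. The log2 fold change was -0.92 in clone A1 (SE 0.105, FDR 8.03e-07), 1.90-fold lower, and -0.56 in clone A2 (SE 0.104, FDR 0.00027). Nqo1, which encodes a quinone reductase often used as a readout of NRF2, stood at 59.6, 54.0 and 63.5 CPM in Lkb1-/-, 41.5, 36.2 and 40.9 CPM in clone A1 and 54.2, 54.3 and 55.2 CPM in clone A2. It was lower in every library of clone A1, by -0.58 (SE 0.0857, FDR 2.11e-05), and overlapped the Lkb1-/- libraries in clone A2 with a log2 fold change of -0.11 (interval -0.29 to 0.06, FDR 0.347).

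In glutathione metabolism, the modifier subunit of the synthesis enzyme and the reductase fell in both clones, and the catalytic subunit differed less. Gclm, the modifier subunit, stood at 124, 124 and 129 CPM in Lkb1-/-, 89.9, 87.6 and 102 CPM in clone A1 and 86.8, 90.4 and 91.3 CPM in clone A2. Its log2 fold change was -0.43 in clone A1 (SE 0.0845, FDR 0.000427) and -0.49 in clone A2 (SE 0.0846, FDR 0.000146). Gsr, glutathione reductase, stood at 224, 200.3 and 229 CPM in Lkb1-/-, 129, 119 and 177 CPM in clone A1 and 112, 115 and 128 CPM in clone A2. Both genes were lower in every clone library than in every Lkb1-/- library, and replicate 3 of clone A1 was its highest for both. The log2 fold change of Gsr was -0.62 in clone A1 (SE 0.149, FDR 0.00241) and -0.88 in clone A2 (SE 0.149, FDR 0.000115), 1.84-fold lower. Gclc stood at 67.2, 67.0 and 69.1 CPM in clone A1 and 84.9, 86.1 and 80.6 CPM in clone A2, on either side of the Lkb1-/- libraries. Its log2 fold change was -0.14 in clone A1 (FDR 0.0557), where it was called lower with DESeq2 (-0.15, FDR 0.0276), DESeq2 size factors (FDR 0.0368), a minimum of 10 counts in every library (FDR 0.0305) and a fit of these groups alone (FDR 0.0142). It was 0.17 higher in clone A2 (SE 0.0564, FDR 0.029), a call lost without Lkb1-/- replicate 3 or clone A2 replicate 1 or 2 (FDR 0.055 to 0.0797), without a filter (FDR 0.34) or in a fit of these groups alone (FDR 0.115).

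In the thioredoxin system, the reductase and sulfiredoxin differed in opposite directions. Txnrd1 stood at 271, 289.9 and 294 CPM in clone A1 and 254, 286 and 249 CPM in clone A2, all above the Lkb1-/- libraries and below those of WT. Its log2 fold change was 0.32 in clone A1 (SE 0.0746, FDR 0.00185) and 0.21 in clone A2 (SE 0.0746, FDR 0.0368), where the call was lost without Lkb1-/- replicate 2 or 3 or clone A2 replicate 2 (FDR 0.0519 to 0.124), without a filter (FDR 0.107) or in a fit of these groups alone (FDR 0.0798). Srxn1 stood at 82.3, 78.3 and 86.0 CPM in Lkb1-/-, 64.4, 63.9 and 68.9 CPM in clone A1 and 69.0, 66.5 and 71.7 CPM in clone A2. It was lower in every clone library, by -0.32 in clone A1 (SE 0.075, FDR 0.00187) and -0.25 in clone A2 (SE 0.0748, FDR 0.0132), where the call was lost without Lkb1-/- replicate 3 (FDR 0.0562) or clone A2 replicate 2 (FDR 0.0608). G6pdx, the first enzyme of the pentose phosphate pathway and a source of NADPH, was called in neither clone, with log2 fold changes of -0.14 (interval -0.33 to 0.06) in clone A1, called lower in a fit of these groups alone (-0.17, FDR 0.0213), and 0.12 (interval -0.07 to 0.31) in clone A2.

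Under IL-1β the called genes were again mostly lower in the clones than in Lkb1-/- MEFs. In clone A1, 6 genes were called lower (17.3% of all genes) and 1 higher (19.4%). Nqo1 (-0.65, FDR 4.55e-06), Hmox1 (-0.69, FDR 2.47e-05), Gclm (-0.44, FDR 0.000305), Gsr (-0.68, FDR 0.00107) and Srxn1 (-0.41, FDR 0.000198) were lower and Txnrd1 was higher (0.36, FDR 0.000616). Nfe2l2 was also called lower (-0.43, FDR 0.0116), a call lost without Lkb1-/- replicate 2 (FDR 0.0566) or clone A1 replicate 1 (FDR 0.0598). In clone A2, 5 genes were called lower (15.8% of all genes) and 2 higher (17.1%). Of these, Gsr (-0.77, FDR 0.000395), Gclm (-0.48, FDR 0.000154) and Txnrd1 (0.32, FDR 0.002) held without any single library. Hmox1 (-0.32, FDR 0.0223), Nqo1 (-0.28, FDR 0.0157), Srxn1 (-0.25, FDR 0.0145) and Gclc (0.18, FDR 0.0161) each lost the call without 1 or more libraries. For Hmox1 these were Lkb1-/- replicates 2 and 3 and clone A2 replicate 1 (FDR 0.0697 to 0.123), for Nqo1 Lkb1-/- replicates 1 and 3 and clone A2 replicates 2 and 3 (FDR 0.057 to 0.126), for Srxn1 Lkb1-/- replicate 3 and clone A2 replicate 2 (FDR 0.0829 and 0.0536), and for Gclc replicate 2 of each group (FDR 0.0673 and 0.0637). Gclc also lost it with upper quartile scaling (FDR 0.0511), without a filter (FDR 0.213) and in a fit of these groups alone (FDR 0.119), and Nqo1 in a fit of these groups alone (FDR 0.0521). In the fit blocked by replicate number, Keap1 was also called higher in clone A1 (0.18, FDR 0.00305) and G6pdx in clone A2 (0.19, FDR 0.00557). Keap1 was called higher in clone A1 with upper quartile scaling (FDR 0.00865) and a minimum of 10 counts in every library (FDR 0.0257) too, and G6pdx in clone A2 with upper quartile scaling (FDR 0.0286).

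Against untreated WT MEFs, clone A1 had 6 genes called lower (25.1% of all genes) and 1 higher (30.3%), and clone A2 had 4 called lower (27.9%) and 0 higher (32.7%). The values set side by side share the WT libraries. Hmox1 was -0.81 in clone A1 (FDR 9.86e-07) and -0.46 in clone A2 (FDR 0.000698), Gsr was -0.61 (FDR 0.00145) and -0.87 (FDR 3.26e-05), and Gclm was -0.52 (FDR 1.88e-05) and -0.58 (FDR 3.97e-06). These 3 genes were thus lower in both clones than in WT and in Lkb1-/- MEFs, whereas untreated WT and Lkb1-/- MEFs differed in them by at most 0.11 (Hmox1). Txnrd1 lay between the lines, with -0.22 in clone A1 (FDR 0.0181, lost without WT replicate 1 at FDR 0.13 or clone A1 replicate 1 at FDR 0.0814, and with upper quartile scaling at FDR 0.141) and -0.33 in clone A2 (FDR 0.000654). In clone A1, Nqo1 (-0.64, FDR 1.61e-06) and Gclc (-0.30, FDR 0.000115) were also lower, and Keap1 was higher (0.26, FDR 0.00965, and 0.0519 without clone A1 replicate 3). In clone A2, Nfe2l2 (0.21, FDR 0.177) and G6pdx (0.12, FDR 0.278) were called higher with upper quartile scaling (0.28, FDR 0.0156, and 0.20, FDR 0.00881), which moved the median of all genes to 0.14. With unstranded counts Nqo1 was called lower in clone A2 (-0.23, FDR 0.0225) and Srxn1 in clone A1 (-0.20, FDR 0.0328), and without clone A2 replicate 2 Keap1 was called lower (-0.21, FDR 0.0239).

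The clones also differed from each other. In untreated cells, 4 genes were higher in clone A2 than in clone A1 (15.8% of all genes) and 1 was lower (16.7%). Nqo1 differed by 0.46 (SE 0.0856, FDR 0.000254), with its 3 clone A2 libraries at 54.2 to 55.2 CPM and its clone A1 libraries at 36.2 to 41.5 CPM. Gclc differed by 0.31 (FDR 0.000242) and Keap1 by -0.38 (FDR 0.000977). Hmox1 differed by 0.36 (FDR 0.0115, and 0.0616 without clone A1 replicate 1). G6pdx differed by 0.25 (FDR 0.0393) and lost the call without any 1 of 5 of the 6 libraries, all but clone A2 replicate 1 (FDR 0.0703 to 0.123), and with unstranded counts (FDR 0.0568). Nfe2l2 (0.32, FDR 0.0644) was called higher with DESeq2 (FDR 0.0492), upper quartile scaling (FDR 0.0164), no filter (FDR 0.0013), a minimum of 10 counts in every library (FDR 0.026) and a fit of these groups alone (FDR 0.0389), and Gsr (-0.26, FDR 0.195) was called lower without a filter (FDR 0.00718). Under IL-1β, 4 genes were higher in clone A2 (15.1% of all genes) and 1 was lower (15.6%), with Nqo1 at 0.38 (FDR 0.0019), Hmox1 at 0.37 (FDR 0.00951), Gclc at 0.23 (FDR 0.00354), G6pdx at 0.28 (FDR 0.0225) and Keap1 at -0.28 (FDR 0.0111). Of these, G6pdx lost the call without clone A1 replicate 1 (FDR 0.108) or clone A2 replicate 2 or 3 (FDR 0.0525 and 0.0693), Keap1 without clone A1 replicate 2 (FDR 0.051), and Gclc without a filter on low counts (FDR 0.0742). In the fit blocked by replicate number, Nfe2l2 (0.31, FDR 0.00114) and Srxn1 (0.17, FDR 0.0109) were called higher in clone A2 as well, and Nfe2l2 also with DESeq2 (FDR 0.0472), upper quartile scaling (FDR 0.0237), no filter (FDR 0.0016) and a minimum of 10 counts in every library (FDR 0.0289).

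Differences between these lines also ran along whole chromosomes, and several of the 10 genes lie on chromosomes that moved. This comparison was chosen after the values were seen. Nqo1 (chr8:107388225-107403206), Hmox1 (chr8:75093621-75100589) and Gsr (chr8:33652523-33698163) lie far apart on chromosome 8. In clone A1 against Lkb1-/- MEFs, untreated, the median log2 fold change of the 918 tested genes of chromosome 8 was -0.37, and 50.4% of them were called lower and 3.38% higher. In clone A2 it was -0.31, with 41.9% called lower. Taken as the gene's log2 fold change minus its chromosome's median, Hmox1 was -0.55 in clone A1 and -0.26 in clone A2, Gsr was -0.25 and -0.58, and Nqo1 was -0.21 and 0.20. Under IL-1β the chromosome medians were -0.37 and -0.29, and the same values were -0.33 and -0.02 for Hmox1, -0.32 and -0.48 for Gsr and -0.29 and 0.02 for Nqo1. In clone A2 under IL-1β, Hmox1 and Nqo1 thus lay near the median of their chromosome. The part of the chromosome's shift in the changes of these 3 genes was not tested.

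Txnrd1 (chr10:82833951-82897712) lies 2.7 Mb from Stk11, and in untreated cells gene and chromosome were close to each other. In Lkb1-/- against WT MEFs, untreated, the median of the 814 genes of chromosome 10 was -0.44, with 49.3% called lower and 18.3% higher, and the 78 tested genes within 2 Mb of Txnrd1 had a median of -0.31. Txnrd1 itself, at -0.54, was -0.10 from its chromosome's median. Under IL-1β the chromosome 10 median was -0.42, and Txnrd1, at -0.74, was -0.31 from it. In the clones against Lkb1-/- MEFs, untreated, chromosome 10 was at 0.39 (A1) and 0.27 (A2), and Txnrd1 was -0.07 and -0.06 from these medians. Keap1 (chr9:21229730-21239361) was higher in clone A1 by less than the median of chromosome 9, 0.32, which was 0.03 in clone A2. The part of these shifts in the changes of Txnrd1 and Keap1 was not tested.

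The other genes lie on chromosomes 2, 3, 9 and X. Gclm (chr3:122245557-122270732) was -0.43 and -0.49 in clones A1 and A2, where chromosome 3 had medians of -0.04 and -0.12. Srxn1 (chr2:152105516-152111376) was -0.32 and -0.25, where chromosome 2 had medians of 0.05 and 0.12, and the 59 tested genes within 2 Mb of it had medians of -0.07 and 0.18. Nfe2l2 (chr2:75675513-75704641) was -0.44 and -0.19 from the chromosome 2 median. Gclc (chr9:77754535-77794485) was -0.47 from the chromosome 9 median in clone A1 and 0.14 in clone A2, and G6pdx (chrX:74409483-74429194) was -0.06 and 0.21 from that of chromosome X.

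**Figure D3:**
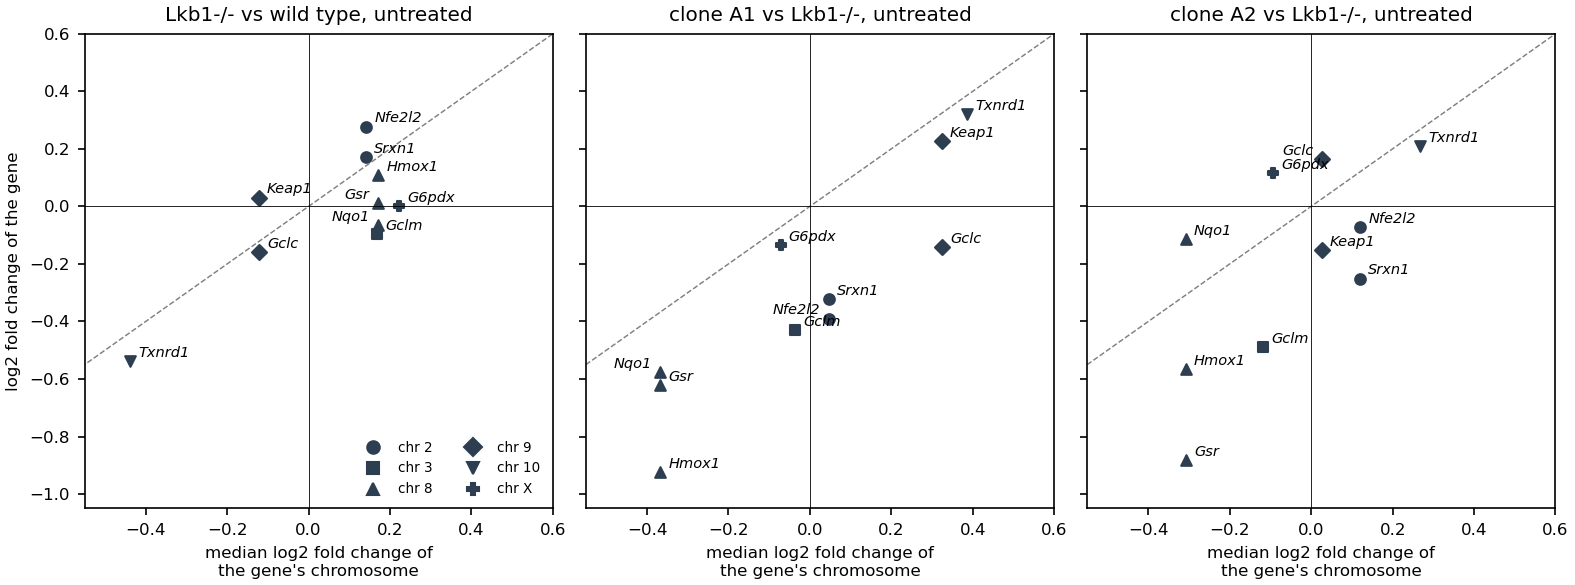
Log2 fold change of each of the 10 genes (vertical) against the median log2 fold change of all tested genes of its chromosome (horizontal), untreated, in 3 comparisons of genotypes; the dashed line marks equal values. Txnrd1 lies near the line in all 3, and Hmox1, Gsr, Gclm and Srxn1 lie below it in both clones.

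Whether IL-1β changed the pathway within each genotype was asked next. The edgeR test called 0 of the 10 genes in each of the 4 genotypes, and DESeq2 called 0 as well. Over all genes, 2.26% were called in WT, 4.74% in Lkb1-/-, 1.99% in clone A1 and 5.68% in clone A2, in either direction. With TMM scaling the WT calls were 268 higher and 128 lower, and with upper quartile scaling 307 and 228. At an unadjusted p under 0.05, 2 of the 10 genes differed in WT and 0 in the other genotypes, beside 2001 of 17522 genes in WT, 2571 in Lkb1-/- MEFs, 1881 in clone A1 and 3076 in clone A2. These 2 were Hmox1 and Srxn1. Hmox1 stood at 128, 105 and 116 CPM in untreated and 157, 129 and 153 CPM in IL-1β-treated WT libraries, all of the latter higher, with a log2 fold change of 0.33 (interval 0.12 to 0.55, FDR 0.12). Srxn1 stood at 74.7, 68.7 and 75.4 CPM and at 94.0, 80.8 and 88.0 CPM, again without overlap, with a log2 fold change of 0.26 (interval 0.11 to 0.42, FDR 0.0756). The replicate numbers paired the libraries in these comparisons, and with them as a block 2 genes were called in WT, Hmox1 (FDR 0.0194) and Srxn1 (FDR 0.00132), and 1 in Lkb1-/- MEFs, Nfe2l2 (0.24, FDR 0.0242). That fit called 1629 of all 17522 genes in WT and 2601 in Lkb1-/- MEFs.

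Nfe2l2 had similar values in the 4 genotypes. Its log2 fold change under IL-1β was 0.20 in WT, 0.25 in Lkb1-/-, 0.21 in clone A1 and 0.21 in clone A2. All 4 intervals, from the fit without a block, included 0. In every genotype Nfe2l2 was higher in each IL-1β library than in the untreated library of the same replicate number. In Lkb1-/- MEFs its untreated libraries stood at 213, 240.2 and 249.9 CPM and its IL-1β libraries at 228, 301 and 307 CPM, so that replicate 1 was the lowest under both treatments. Replicate 1 had the lowest Nfe2l2 level in all 8 groups, and in all 8 it also had the highest share of read pairs without a gene. That share was 33.1% to 34.4% in replicate 1 of IL-1β-treated Lkb1-/- MEFs, IL-1β-treated clone A1 and both groups of clone A2, 29.9% to 31.0% in the other replicate 1 libraries and 26.7% to 30.04% in replicates 2 and 3. Its part in the Nfe2l2 values was not tested. Without replicate 1 of clone A2, Nfe2l2 was called higher in clone A2 than in clone A1, by 0.43 untreated (FDR 0.00944) and 0.47 under IL-1β (FDR 0.00219). Hmox1 in Lkb1-/- MEFs stood at 116, 129 and 130.4 CPM untreated and at 100.1, 111 and 113 CPM with IL-1β. Every treated library was lower than every untreated one there, the reverse of WT, with a log2 fold change of -0.21 (interval -0.43 to 0.01, FDR 0.359). In clones A1 and A2 Hmox1 differed by 0.02 and 0.04. Keap1 differed by at most 0.07 in size in any genotype.

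The responses were then compared between genotypes. Over all genes, 0.245% had a response that differed between Lkb1-/- and WT MEFs, 0.0285% between clone A1 and Lkb1-/- MEFs, and 0% between clone A2 and Lkb1-/- MEFs. Of the 10 genes, 0 were called in each of these comparisons by edgeR, and 0 by DESeq2. At an unadjusted p under 0.05 the counts were 1, 0 and 0 of the 10, beside 985, 433 and 388 of all genes. The 1 gene was Hmox1, whose response was lower in Lkb1-/- than in WT MEFs by 0.55 on the log2 scale (SE 0.147, interval of the difference -0.85 to -0.24, FDR 0.206). The replicate numbers paired untreated and treated libraries within each genotype, and with a block by replicate number within genotype this difference passed (-0.54, FDR 7.55e-07). In that fit the response of Txnrd1 was also lower in Lkb1-/- than in WT MEFs (-0.20, FDR 0.0154), and that of Hmox1 was higher in clone A1 (0.23, FDR 0.0312) and in clone A2 (0.25, FDR 0.0223) than in Lkb1-/- MEFs. The same fit called 1003, 267 and 183 of all 17522 genes in these 3 comparisons.

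**Figure D4:**
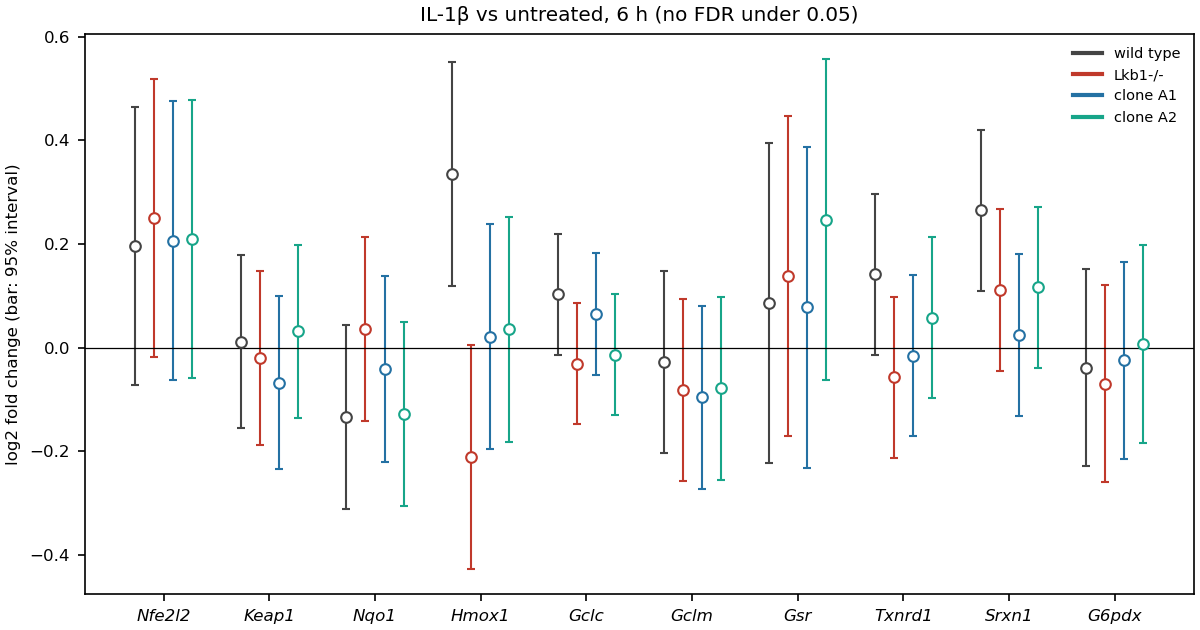
Log2 fold changes of the 10 genes between IL-1β-treated and untreated cells in each genotype (points; bars are 95% intervals of the edgeR fit; open points have an FDR of 0.05 or more). No point is filled, and Hmox1 lies at 0.33 in WT and at -0.21 in Lkb1-/- MEFs.

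Other genes of the pathway, and antioxidant enzymes outside it, were followed in 3 lists. The first held 8 partners and regulators of NRF2. In untreated Lkb1-/- against WT MEFs, 1 of the 8 was called higher and 5 lower, where 30.1% and 25.8% of all genes were, and the median was -0.38 beside 0.04 over all genes. Mafk, a small MAF partner, was at 15.5 ± 1.86 CPM in Lkb1-/- MEFs (log2 fold change -1.36, FDR 3.07e-10), and Mafg, another, fell by 0.60 on the log2 scale (FDR 1.15e-07). Sqstm1, which encodes the adaptor p62 that sequesters KEAP1 and is itself an NRF2 target, fell from 513 ± 34.2 to 276 ± 24.1 CPM (-0.90, FDR 8.49e-07). Rbx1, a subunit of the CUL3 ligase, rose by 0.18 (FDR 0.00305). Against Lkb1-/- MEFs, clone A1 had 1 of the 8 higher (Rbx1, 0.24) and 1 lower (Cul3, -0.23), and clone A2 had 3 higher (Sqstm1, 0.50; Mafg, 0.44; Rbx1, 0.36) and 2 lower (Cul3, -0.40; Maff, -0.33). Of all genes, 18.9% were higher and 16.4% lower in clone A1, and 17.1% and 15.1% in clone A2.

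The second list held 29 other target genes. Of these, 26 had counts high enough to be tested. In untreated Lkb1-/- against WT MEFs, 11 were called higher and 6 lower, where 30.1% and 25.8% of all genes were, with a median of 0.15 beside 0.04 over all genes. The 3 highest were low in WT MEFs, and Mgst1 and Cbr3 were barely detected there. Mgst1, a microsomal glutathione transferase, had 3 to 5 read pairs per WT library and 1370 to 1728 per Lkb1-/- library, a ratio of 411 (exact 95% interval 235 to 797, counting error only). Cbr3, a carbonyl reductase, had 0 or 1 per WT library and 71 to 107 per Lkb1-/- library, a ratio of 146 (interval 40 to 1210). Gsta4, a glutathione transferase for lipid peroxidation products, rose from 0.605 ± 0.185 to 31.6 ± 3.89 CPM (5.69, FDR 2.44e-15). The lowest were Me1, which makes NADPH (-0.75, FDR 3.98e-06), the ferritin light chain gene Ftl1 (-0.74, FDR 1.18e-05) and the cystine transporter Slc7a11 (-0.65, FDR 0.0313). Glutathione transferases and ferritins have close paralogs or pseudogenes, which makes their counts uncertain.

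In the clones most called genes of this list were lower than in Lkb1-/- MEFs. Clone A1 had 12 of 26 called lower (16.4% of all genes) and 3 higher (18.9%), with a median of -0.35. Clone A2 had 11 lower (15.1% of all genes) and 3 higher (17.1%), with a median of -0.11. The median of all genes was 0.02 in both comparisons. In clone A1 Mgst1 fell from 36.6 ± 5.15 to 5.33 ± 1.15 CPM (-2.78, FDR 4.05e-09), the ferritin heavy chain gene Fth1 fell by 0.92 on the log2 scale (FDR 1.07e-06) and Ugdh, which supplies UDP-glucuronate, by 0.70 (FDR 1.27e-07). Its higher genes were Gsta4 (0.43), Me1 (0.32) and the glutathione synthetase Gss (0.26). In clone A2 the peroxiredoxin Prdx6 (-0.75, FDR 3.54e-07), Fth1 (-0.60, FDR 0.000202) and Osgin1 (-0.59, FDR 0.00216) were lowest, and Cbr3 (1.45), Gstm1 (0.71) and Gss (0.45) were higher.

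The third list held 11 antioxidant enzymes outside the NRF2 lists. In untreated Lkb1-/- against WT MEFs, 3 were called higher and 4 lower, with a median of 0.06, where 30.1% and 25.8% of all genes were and their median was 0.04. Sod3, the extracellular superoxide dismutase, had 1 or 2 read pairs per WT library and 1859 to 2212 per Lkb1-/- library, a ratio of 1610 (interval 628 to 5910). Prdx2 (0.97) and Sod1 (0.29) were also higher, and the mitochondrial thioredoxin reductase Txnrd2 (-0.55), Prdx3 (-0.40) and Gpx4 (-0.39) were lower. Clone A1 had 2 higher (Txn2, 0.21; Gpx1, 0.19) and 6 lower than Lkb1-/- MEFs (18.9% and 16.4% of all genes), with a median of -0.27, among them Sod2 (-0.73), Sod3 (-0.72) and Prdx2 (-0.65). Clone A2 had 1 higher (Gpx1, 0.38) and 4 lower (17.1% and 15.1% of all genes), with a median of -0.03. Sod3 fell most there, from 47.7 ± 4.93 to 7.16 ± 0.97 CPM (-2.74, FDR 1.73e-08), followed by Prdx5 (-0.57) and Prdx3 (-0.28).

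**Figure D5:**
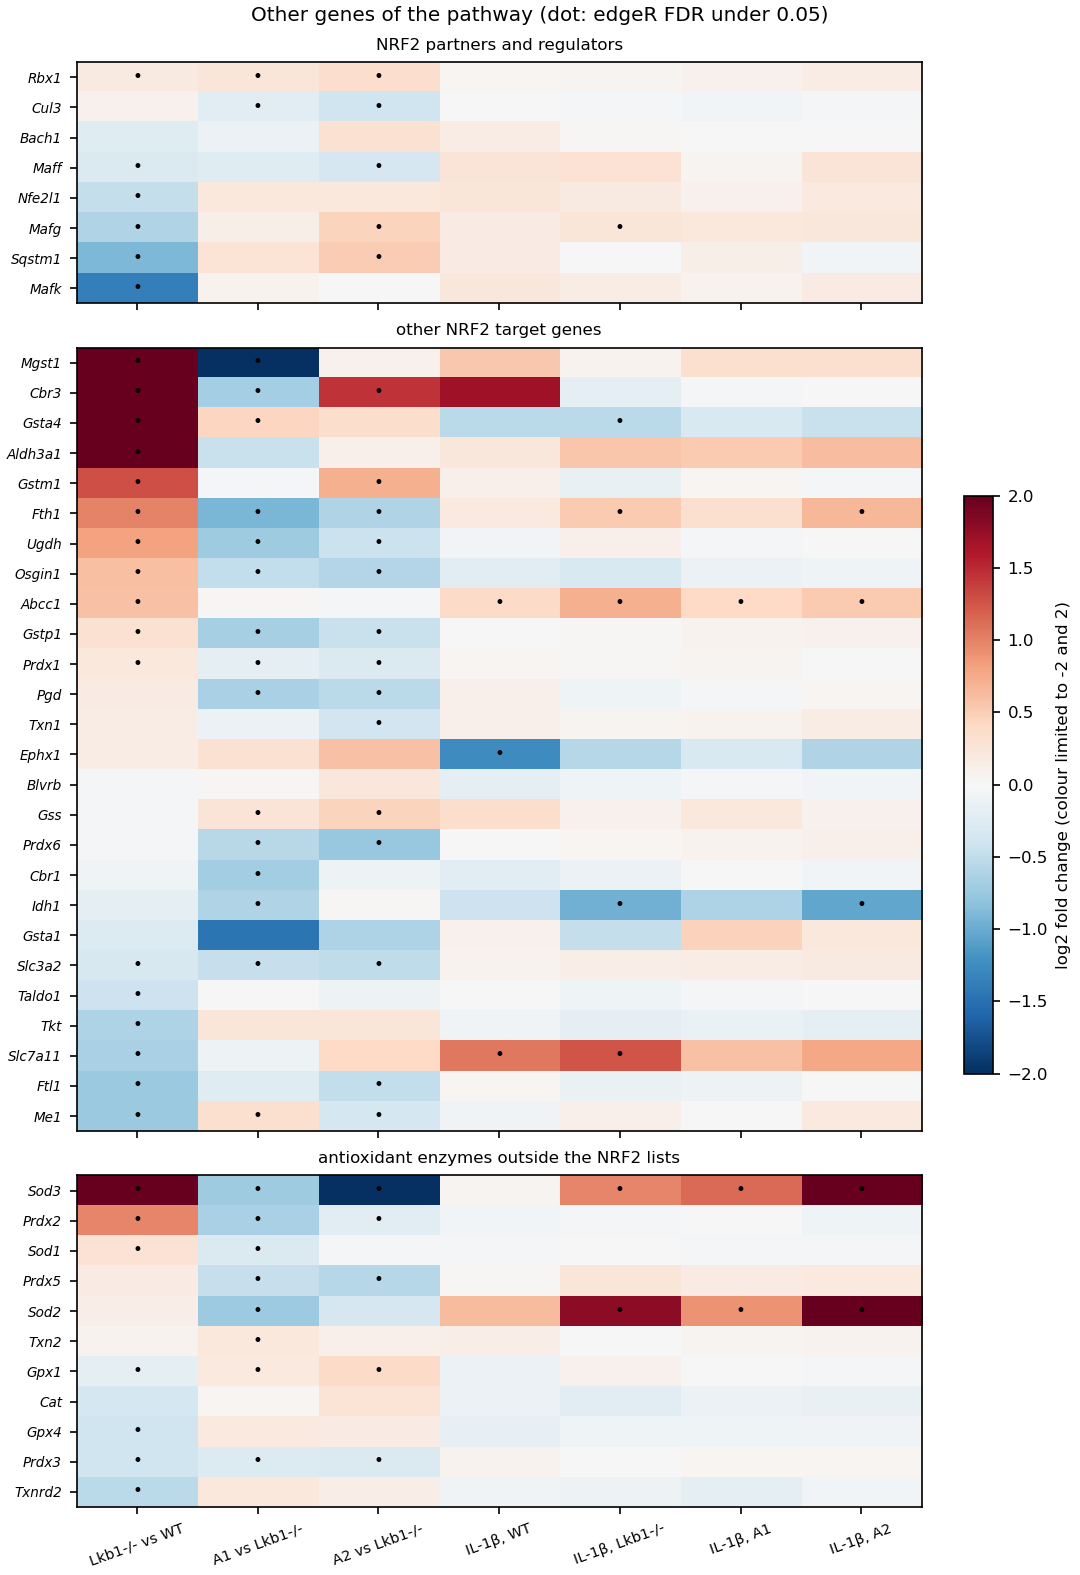
Log2 fold changes of the genes in the 3 lists (rows; the third holds antioxidant enzymes outside the NRF2 lists) for the comparisons named on the horizontal axis (color, limited to -2 and 2; dots mark an FDR under 0.05). Fth1 is lower in both clones than in Lkb1-/- MEFs, and Sod2 is higher after IL-1β in both clones and in Lkb1-/- MEFs.

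Under IL-1β, some genes of these lists were called in the fit without a block. Abcc1, an exporter of glutathione conjugates, rose in all 4 genotypes, by 0.38 in WT, 0.72 in Lkb1-/-, 0.40 in clone A1 and 0.52 in clone A2 on the log2 scale (FDR 0.013, 8.31e-06, 0.0105 and 0.000333). Slc7a11 rose by 1.05 in WT (FDR 0.0218) and 1.26 in Lkb1-/- MEFs (FDR 0.0032). Sod2, the mitochondrial superoxide dismutase and a well-known NF-κB target, rose from 136 ± 7.28 to 467 ± 104 CPM in Lkb1-/- MEFs (1.78, FDR 1.85e-06), by 0.89 in clone A1 (FDR 0.01) and by 2.02 in clone A2 (FDR 3.93e-07). In WT MEFs its value was 0.64 (FDR 0.0835), and the difference of the responses between Lkb1-/- and WT MEFs was 1.15 (FDR 0.0757).

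Sod3 rose in Lkb1-/- MEFs (0.98, FDR 0.00517), clone A1 (1.13, FDR 0.00346) and clone A2 (2.18, FDR 1.3e-06). Fth1 rose in Lkb1-/- MEFs (0.53, FDR 0.0038) and clone A2 (0.67, FDR 0.000337), and Mafg rose in Lkb1-/- MEFs (0.25, FDR 0.0331). The NADPH-producing Idh1 fell by 0.95 in Lkb1-/- MEFs (FDR 0.0179) and by 1.04 in clone A2 (FDR 0.00863), and Gsta4 fell by 0.55 in Lkb1-/- MEFs (FDR 0.035). The epoxide hydrolase Ephx1 was called lower in WT MEFs (-1.26, FDR 0.0131), although its groups overlapped. In the comparisons of responses between genotypes, 0 genes of the 3 lists were called by edgeR.

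Across the 24 libraries the 10 genes varied together only in part. Of the 45 pairs, 34 had a positive Pearson correlation of log2 CPM, 15 were over 0.5 and 2 under -0.5, with a median of 0.30. These libraries share lines and treatments, so the values are a description. No matching count was made over pairs of all genes, so these counts do not set the 10 genes apart from others. The strongest were Gsr with Gclm (0.92), Gclm with Hmox1 (0.85) and Srxn1 with Gsr (0.82), and the lowest were Nqo1 with Keap1 (-0.64) and Gclc with Keap1 (-0.60). Among the 9366 genes with a mean log2 CPM above 3, the pair of genes most like each of the 10 were Ero1lb (0.94) and Spidr (0.93) for Nfe2l2, Ik (0.92) and Cep192 (0.92) for Keap1, Lemd2 (0.93) and Dusp4 (0.92) for Nqo1, and Cmip (0.95) and Mark2 (0.95) for Hmox1. They were E130309D02Rik (0.92) and Ppwd1 (0.90) for Gclc, Gnpat (0.97) and Abhd17b (0.96) for Gclm, and Ubxn8 (0.96) and Gstcd (0.95) for Gsr. For Txnrd1 they were Hspa4 (0.96) and Lancl3 (0.96), for Srxn1 Cnot11 (0.87) and E2f8 (0.87), and for G6pdx Rala (0.93) and Hlx (0.92). Whole chromosomes moved between the lines, and the chromosomes of these most alike genes were not compared.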

How the data were processed

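RNA-seq counts of 24 libraries were analyzed. The authors trimmed paired reads with Trim Galore 0.6.0, aligned them with STAR 2.7.8a to mm10 (GRCm38) and GENCODE genes, and deposited the resulting gene counts, which are whole numbers of read pairs without normalization, once unstranded and once for each strand. The library kit is uncertain, since the labels give the SMARTER mRNA-Seq kit and the study's methods a different one with depletion of ribosomal RNA. The second strand setting was taken, which held 95.5% to 96.0% of what both strand settings together assigned. Pairs in 4 lines without a gene (ambiguous, no feature, multimapping, unmapped) made up 26.7% to 34.4% of each library and were left out. Symbols and positions are those of GENCODE M21, of the same build, which matched 55144 of 55471 identifiers. Columns of comparisons by the authors were not among the files used.

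The function filterByExpr, with groups given and minimums of 10 counts and 15 in total, kept 17522 genes, and scaling was by TMM (factors 0.922 to 1.09). The quasi-likelihood test of edgeR 4.0.16 in its older form, with limma 3.58.1 in R 4.3.3, took all 24 libraries in 1 fit by group, after the study's methods, and 17 contrasts were tested. The common biological coefficient of variation was 0.129. CPM values, figures and ratios were computed in Python 3.11.15. Ratios against groups with few read pairs have exact intervals that cover counting error only, and the detection limit is 3 counts. The test was also run on simulated counts with known changes, and the outcome is not given here.

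The rule for the 10 members uses names and no values, but the members and lists were chosen with earlier results of these data known. Named were all 10 genes, up to 3 called genes in each direction of each other list, every gene of these lists called under IL-1β, and for each of the 10 genes the pair most like it. The comparison with chromosome medians and with the genes within 2 Mb was added after the values were seen. Some alternatives also changed which genes were tested, since DESeq2 applies its own scaling and filter and a fit of fewer libraries its own filter. Other scalings were DESeq2 size factors and the upper quartile, other tests DESeq2 1.42.0 and edgeR's newer method, and other filters none or a minimum of 10 counts throughout. Unstranded counts, a block by replicate number (for responses also within genotype), fits limited to the libraries of a comparison, and fits without single libraries were also run. The replicate numbers in the labels were taken to pair libraries where all deviations of same-numbered libraries from their group means correlated over 0.1. This held for all IL-1β contrasts within genotypes, the 4 comparisons of genotypes under IL-1β, and clone A2 against Lkb1-/- MEFs untreated (0.111 to 0.589). It also held for the response of clone A2 against that of Lkb1-/- MEFs. In the other comparisons all these correlations were positive too, with the lowest between 0.0355 and 0.0692. The cut therefore does not exclude shared replicate effects there. The labels do not say whether libraries came from separate cultures, so p-values measure the spread between these libraries, which may be technical.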

Additional observations from a re-analysis of the deposited data

Results flagged for a closer look

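Hmox1 had values of opposite sign with IL-1β in WT and Lkb1-/- MEFs, with every treated library on one side of every untreated one in both. With 3 libraries against 3, even such full separation has an exact permutation p of 0.1 at the smallest. How many of all genes show the same pattern was not counted, so it does not set Hmox1 apart from other genes. The log2 fold change of Hmox1 was 0.33 in WT (FDR 0.12) and -0.21 in Lkb1-/- MEFs (FDR 0.359), and neither passed the edgeR test. The difference of the responses, -0.55 on the log2 scale, had an FDR of 0.206 in the edgeR test over all genes and did not pass there, and 7.55e-07 with a block by replicate number within genotype.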

How the results depend on the processing

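Of 2760 values of the 10 genes under the alternatives, 2622 kept their side of the threshold, 63 lost the call, 75 gained it and 0 called values changed sign. Values that were not called did change sign in places, such as Keap1 in untreated Lkb1-/- against WT MEFs (-0.02 to 0.11). Leaving out 1 library in turn, the members called ranged from 1 to 3 in untreated Lkb1-/- against WT MEFs (1 without WT replicate 1), from 3 to 6 in untreated clone A2 against Lkb1-/- MEFs (3 without Lkb1-/- replicate 3 or clone A2 replicate 2) and from 4 to 7 under IL-1β (4 without clone A2 replicate 2), and from 3 to 6 in untreated clone A2 against clone A1 (3 without clone A1 replicate 1). Of the 17879 to 17966 genes tested in these fits, 9085 to 9523, 4613 to 6039, 4864 to 5797 and 4732 to 6116 were called in the same order. With the replicate block, members called were 4 in untreated Lkb1-/- against WT MEFs and 7 in untreated clone A2 against WT MEFs. That fit called 11275 and 12022 of all 17522 genes there. Nfe2l2 (0.27, FDR 0.00224) and Srxn1 (0.17, FDR 0.00519) gained the call in the first. Nfe2l2 (0.19, FDR 0.0211), Keap1 (-0.12, FDR 0.0274) and Nqo1 (-0.18, FDR 0.00415) gained it in the second. The correlations of same-numbered libraries missed the cut of 0.1 in both, but all were positive (0.0355 to 0.247 and 0.0575 to 0.264). The block also called 2 members for IL-1β in WT, 1 for IL-1β in Lkb1-/- MEFs and 1 for the difference of these responses. Beside the calls named with their results, the block changed no call where the numbers were taken to pair the libraries. In untreated cells it also called Gclc and G6pdx lower in clone A1 than in Lkb1-/- MEFs (FDR 0.0267 and 0.0463). Srxn1 and G6pdx were called lower in clone A1 than in WT MEFs (FDR 0.014 and 0.0376). In clone A2 against clone A1, Nfe2l2 was called higher (FDR 0.00113) and Gsr lower (FDR 0.0254). That fit called 8424, 11251 and 8104 of all 17522 genes in these comparisons. With the block within each genotype, 2, 1 and 1 members were called for the differences of the responses of Lkb1-/- from WT MEFs, and of clones A1 and A2 from Lkb1-/- MEFs. For IL-1β in WT, upper quartile scaling gave 2 members called (535 of 17522 genes), no filter 1 (954 of 36796) and at least 10 counts in every library 2 (438 of 12755), and no filter gave 1 each for IL-1β in Lkb1-/- MEFs, IL-1β in clone A2 and the difference of the Lkb1-/- and WT responses (1428, 1643 and 347 of 36796). The cause of these changes was not tested. The difference of the Hmox1 responses had an FDR of 0.00245 without a filter, 0.0233 with the block and 7.55e-07 with the block within genotype. Upper quartile scaling moved the median of all genes in Lkb1-/- against WT MEFs under IL-1β from 0.03 to 0.14.

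Over all genes, IL-1β calls in WT, Lkb1-/-, clone A1 and clone A2 were 396, 831, 348 and 995, were 954, 1428, 908 and 1643 without a filter, and 1629, 2601, 1684 and 3133 with the block. DESeq2 gave 620 in WT and 563 in clone A1, and a fit of only the groups compared gave 246 in clone A2. Without single libraries they fell to 203 in WT (without untreated replicate 2), 544 in Lkb1-/- MEFs (without untreated replicate 2) and 197 to 233 in clone A1 (lowest without untreated replicate 2), and rose to 1890 in clone A2 (without untreated replicate 1). The 43, 5 and 0 genes with differing responses became 347, 141 and 68 without a filter, 311, 36 and 18 with the block, 1003, 267 and 183 with the block within genotype, 113, 11 and 10 in DESeq2, 76, 3 and 1 with upper quartile scaling, 70, 5 and 0 with at least 10 counts in every library, 70, 4 and 0 in fits of the groups compared, and 32, 3 and 0 with unstranded counts. The 43 fell to 23 without untreated Lkb1-/- replicate 2 or 3, 25 without IL-1β Lkb1-/- replicate 3 and 28 without IL-1β WT replicate 2. The 5 fell to 0 to 3 without any 1 of 10 of the 12 libraries, all but clone A1 replicate 3 of both treatments, and the 0 became 1 without clone A2 replicate 1 of either treatment. With at least 1510 read pairs in every library, the 10 genes were far above the limit that depth sets.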
